A study of Homo sapiens with 112 samples.

Results

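The early response of LAPC4 cells to a low dose of darolutamide was described from RNA-seq counts. LAPC4 is a human prostate cancer cell line whose growth depends on androgen. Libraries of cells treated for 8 h with 1 nM R1881, a synthetic androgen, plus 500 nM darolutamide were compared with libraries of cells treated for 8 h with 1 nM R1881 and the DMSO vehicle. The libraries were chosen by the cell line, treatment and time in their labels, which gave 5 libraries with darolutamide and 10 with R1881, together 15 libraries of a series with 57 from LAPC4 and 55 from VCaP cells. Of 58684 listed genes, 18204 (31%) held at least 10 reads in at least 4 of the 57 LAPC4 libraries and were tested. The series exposed VCaP and LAPC4 cells to DMSO, to R1881, or to R1881 with 500 nM or 2 µM darolutamide for 8 or 22 h. Every group, the DMSO controls included, had first been starved of steroids for 2 days, with 10% serum stripped by charcoal. For LAPC4 cells at 8 h, 10 DMSO libraries and 5 libraries with 2 µM darolutamide were set beside the comparison. For LAPC4 cells at 22 h, 7 DMSO, 10 R1881 and 5 libraries with 500 nM were used, and for VCaP cells at 8 h 10 DMSO, 10 R1881 and 4 libraries with 500 nM. The methods speak of fewer biological replicates per condition than the 10 R1881 and 10 DMSO libraries, and whether replicates 6 to 10 are separate cultures is not given in the sources used here. With R1881 replicates 1 to 5 alone, 69 genes were called in place of 114. All replicates come from 1 cell line, so the p-values measure the spread between these libraries and not between tumours.

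Androgens act on transcription in prostate cells at enhancers that pioneer factors such as FOXA1 hold open. Androgen signalling raises genes of the luminal prostate program, among them the secreted kallikrein proteases. Other genes fall when it is active. Darolutamide is a drug used against prostate cancer that blocks androgen signalling. The comparison therefore addresses which R1881-dependent transcripts had already moved at 8 h under the lower of the doses used.

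Gene counts summed to 20660404 to 25201678 in the low-dose libraries (median 21731567) and to 12188455 to 23940750 in the R1881 libraries (median 18984051.5). The 10 luminal markers, among them KRT8, KRT18, EPCAM, CDH1, FOXA1, HOXB13, KLK3 and KLK2, were detected in all 15 libraries. Their summed level ran from 3450 to 3660 CPM (reads scaled to library size with TMM factors) with R1881 and from 3410 to 3870 with the low dose. ERG, which VCaP cells express from a gene fusion, had at most 1 read in any of these libraries. Of 8 leukocyte markers, 0 passed the filter on reads, and their summed level was at most 0.519 CPM, with MS4A1 at 0 in each library. The 6 basal markers summed to 137 to 225 CPM with R1881 and 120 to 279 with the low dose, the 9 stromal markers to 8.93 to 12.5 and 8.92 to 13.9, the 4 endothelial markers to 0.778 to 2.13 and 0.823 to 1.59, and the 7 neuroendocrine markers, with CHGA at 0, to 16.7 to 19.6 and 15.6 to 19.2. After Benjamini-Hochberg adjustment of edgeR quasi-likelihood p-values, 0 markers of these 5 other cell types were called, with an unadjusted p under 0.05 for KRT15 and VWF and 0 called by DESeq2. In bulk RNA, fewer cells of a type and less RNA per cell cannot be told apart. Low-dose replicate 1 stood apart from the other libraries of both groups. Across genes, its log2 CPM changed with GC content by -0.0304 per percent, against -0.0765 to -0.0513 in the other low-dose and -0.0679 to -0.0437 in the R1881 libraries. Low-dose replicate 2, at -0.0765, lay outside the R1881 range on the other side. Similar slopes to that of replicate 1 occurred in other LAPC4 groups. Also in replicate 1, they were -0.0312 with the low dose at 22 h and -0.0368 with 2 µM at 8 h. In other numbers, they were -0.0344 with DMSO at 8 h (replicate 10), -0.0315 with 2 µM at 22 h (replicate 5) and -0.0317 with R1881 at 22 h (replicate 7). Replicate 2 was the steepest also with 2 µM at 8 h (-0.07855) and with the low dose at 22 h (-0.0634). A batch shared by replicate number was not tested. Counts in the 4 pairs of low-dose libraries that include replicate 1 differed by a chi-square per gene of 12.9 to 43.5, against 2.46 to 14.7 in the 6 other pairs. Every pair of replicates in both groups differed by more than sampling noise (at least 1.51 per gene), so none was a repeat deposit of another library, which does not show that they come from separate cultures. Values without replicate 1 are given beside the results that turn on it.

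The low dose moved a small set of genes, and most of those called were lower. At a Benjamini-Hochberg adjusted p under 0.05 from edgeR's quasi-likelihood test, 114 genes were called (0.626% of those tested), of which 89 were lower (0.489%) and 25 higher (0.137%) than with R1881 alone. At an unadjusted p under 0.05 there were 884 of the 18204 tested, 427 lower and 457 higher, and DESeq2 called 121. The 884 are close to the share that this threshold passes with no effect, so they do not show a wider response. The median absolute log2 fold change was 0.28 among the falls and 0.27 among the rises, and 4 falls (CHRNA2, KLK2, ZBTB16 and the pseudogene VN1R84P, named after their values were seen) and 0 rises exceeded 1. For 63 of the 89 falls (70.8%) each low-dose library lay below each R1881 library, which held in that direction for 0.412% of all genes tested. For 14 of the 25 rises (56%) each low-dose library lay above each R1881 library, against 0.115% of all genes. The median log2 fold change over all tested genes was 0.01. Without replicate 1, 77 falls and 31 rises were called, 108 in all, of which 93 were among the 114. Only 14 rises were called without replicate 2 and 15 without replicate 5.

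**Figure D1:**
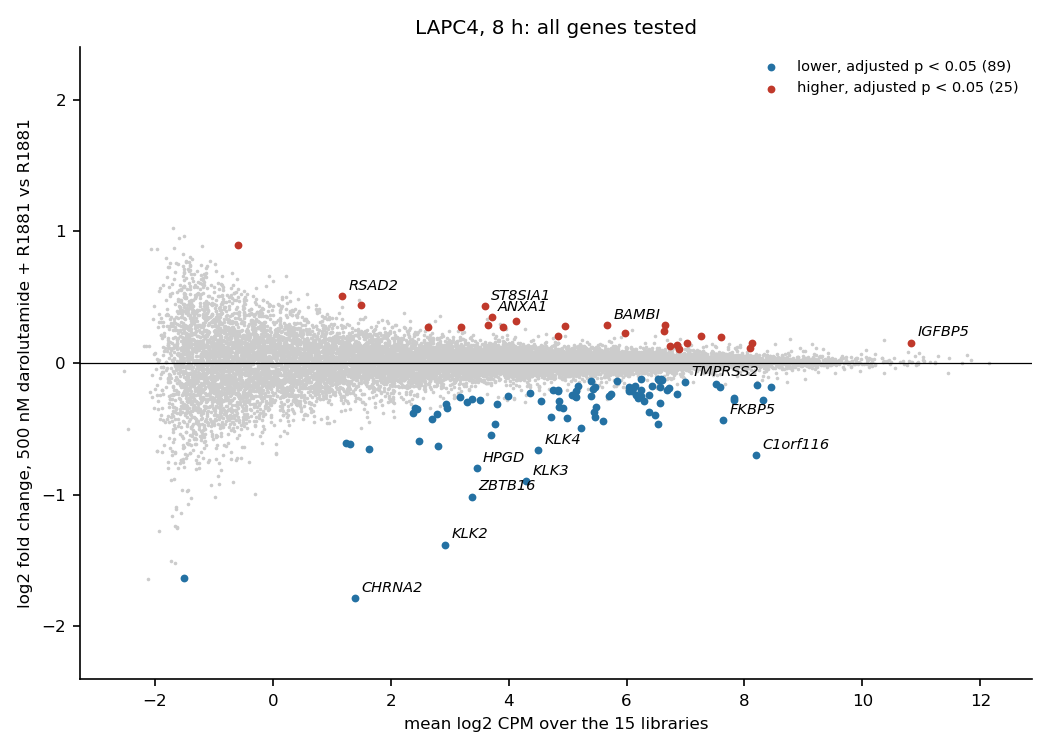
Log2 fold change of 500 nM darolutamide plus R1881 against R1881 in LAPC4 cells at 8 h (vertical axis) plotted against the mean log2 CPM over the 15 libraries (horizontal axis), 1 point per tested gene. The 89 genes called lower (blue) spread down to a log2 fold change of -1.79, while the 25 called higher (red) stay below 0.90 and the other genes (grey) scatter more widely at low expression.

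Neighbouring kallikrein genes on chromosome 19 were among the largest falls. KLK3 (chromosome 19, 50854915 to 50860764, GENCODE 44 on GRCh38) encodes prostate-specific antigen, the serine protease measured as a blood marker of prostate cancer. Its level in the 5 low-dose libraries was 12.8, 13.5, 13.9, 11.8 and 12.7 CPM, against 20.1, 24.2 and 28.2 CPM (lowest, median and highest) in the 10 R1881 libraries. The groups did not overlap, and the low-dose values lay inside the DMSO range of 9.445 to 15.6 CPM. The log2 fold change was -0.89 ± 0.090 (SE), 0.538 of the R1881 level (adjusted p = 2.01e-10 from edgeR's quasi-likelihood test, adjusted by Benjamini-Hochberg, as for all adjusted p-values that follow unless another tool is named). KLK2 (chromosome 19, 50861568 to 50880567), the protease that activates prostate-specific antigen, had 4.11, 4.19, 4.29, 3.67 and 3.73 CPM with the low dose and 8.30, 9.87 and 14.99 CPM with R1881. These groups did not overlap either. KLK2 fell by 1.38 ± 0.13 on the log2 scale to 0.385 of the R1881 level (adjusted p = 2.8e-11). KLK4 (chromosome 19, 50906351 to 50911395), another protease of the cluster, had 22.2, 13.0, 16.9, 16.7 and 15.3 CPM with the low dose, against 21.7, 26.4 and 31.3 with R1881. Only replicate 1 reached into the R1881 range. The log2 fold change of KLK4 was -0.66 ± 0.14 (adjusted p = 0.00623), and without replicate 1 it was -0.78 ± 0.15 (adjusted p = 0.00191). KLK2 and KLK3 are close paralogs, and how reads that align to both were counted is not given in the sources used here, so their separate levels are uncertain.

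The promoters of KLK3 and KLK2 are shown because these neighbouring genes moved together. RefSeq gives a window of 300 bases (250 before to 50 after the gene start, GRCh38.p14, plus strand). Capitals mark the androgen response motif AGAACA, which was searched on both strands. The KLK3 window is chr19:50854665-50854964 and the KLK2 window chr19:50873189-50873488. The KLK2 window lies inside the GENCODE span given above, so its RefSeq gene start is downstream of the GENCODE one.
KLK3: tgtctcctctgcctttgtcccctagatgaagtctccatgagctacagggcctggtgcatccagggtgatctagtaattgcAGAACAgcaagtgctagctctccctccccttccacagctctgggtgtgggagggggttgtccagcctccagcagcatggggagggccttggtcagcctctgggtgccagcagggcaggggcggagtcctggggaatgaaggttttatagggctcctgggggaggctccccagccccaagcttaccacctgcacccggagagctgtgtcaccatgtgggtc
KLK2: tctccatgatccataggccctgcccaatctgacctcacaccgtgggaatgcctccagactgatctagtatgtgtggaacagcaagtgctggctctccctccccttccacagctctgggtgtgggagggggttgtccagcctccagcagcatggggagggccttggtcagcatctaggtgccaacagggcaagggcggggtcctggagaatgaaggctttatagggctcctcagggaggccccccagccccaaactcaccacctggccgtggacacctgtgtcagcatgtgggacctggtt
The KLK3 window held the motif once, starting 170 bases before the gene start, and the KLK2 window did not hold these letters. Shifted by 6 bases, the windows were identical at 225 of 294 positions (76.5%), with a longest shared run of 80 bases. RefSeq windows were matched for 41 of the 89 falls, 13 of the 25 rises and 7644 of all tested genes. The motif was present in 3 of the 41 falls (7.32%; KLK3, GP2 and SALL2), 0 of the 13 rises and 8.29% of all windows. The full palindrome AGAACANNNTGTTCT was found in 0 of the 7644 windows. These matches describe letters in the window and not binding of a factor.

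Away from the cluster, the fall with the smallest adjusted p was C1orf116 (chromosome 1, 207018522 to 207032756), which encodes a protein named for its regulation by androgen. The low-dose libraries held 220.0, 201, 207.5, 225 and 208 CPM, the R1881 libraries 319, 348 and 356 CPM. The groups did not overlap. The log2 fold change was -0.70 ± 0.029 (adjusted p = 3.58e-26). HPGD (chromosome 4, 174490175 to 174523154), the dehydrogenase that inactivates prostaglandins, had 8.42, 7.77, 8.66, 5.78 and 7.27 CPM, against 12.1, 13.3 and 14.3 with R1881. Each low-dose library was below each R1881 library, and HPGD fell by 0.80 ± 0.069 on the log2 scale (adjusted p = 3.84e-12). FKBP5 (chromosome 6, 35573585 to 35728583), a co-chaperone of HSP90 in steroid receptor complexes, had 152, 173, 163, 158 and 170.5 CPM against 206, 220.4 and 232 CPM. It did not overlap between the groups and fell by 0.43 ± 0.041 (adjusted p = 2.97e-11). ENDOD1 (chromosome 11, 95089846 to 95132645), which holds an endonuclease domain, had 72.8, 77.8, 76.0, 74.5 and 72.1 CPM against 96.5, 102.7 and 111 CPM. It fell by 0.46 ± 0.044 (adjusted p = 6.65e-11), again without overlap.

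**Figure D2:**
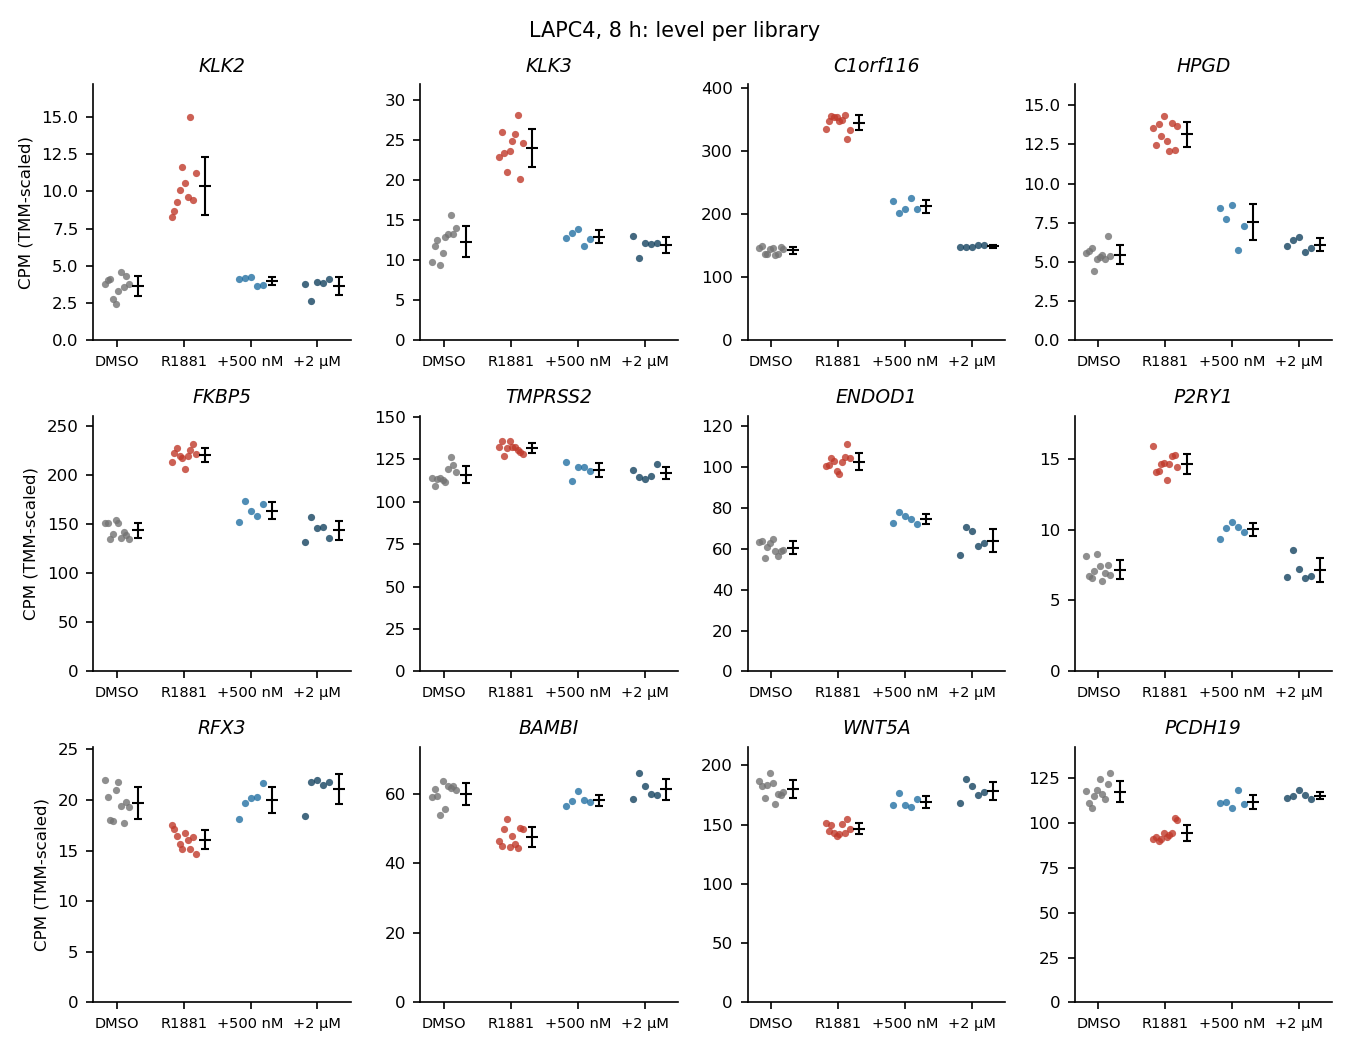
Level of 12 genes in each LAPC4 library at 8 h, in CPM scaled by TMM factors, for DMSO (10 libraries), R1881 (10), R1881 plus 500 nM (5) and R1881 plus 2 µM darolutamide (5). Points are libraries and bars the mean ± SD. KLK2 and KLK3 with 500 nM lie in the DMSO range, C1orf116 and P2RY1 lie between DMSO and R1881, and the bottom row shows genes that rose.

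The remaining large falls were of other kinds. PEX10, a peroxisome biogenesis factor, had 40.9, 26.0, 28.0, 28.4 and 27.0 CPM against 38.1, 42.3 and 46.6, so that replicate 1 alone stood inside the R1881 range. Its log2 fold change was -0.49 ± 0.098 (adjusted p = 0.00241) and, without replicate 1, -0.62 ± 0.098 (adjusted p = 4.69e-05). SLC45A3, the prostate membrane protein prostein, showed the same split, with 49.95 CPM in replicate 1, 32.4 to 41.1 CPM in the other low-dose libraries and 49.3 to 62.1 CPM with R1881. SLC45A3 fell by 0.44 ± 0.094 (adjusted p = 0.00606), and by 0.53 ± 0.098 without that library (adjusted p = 0.000845). The other 5 large falls had no overlap between groups. PDE9A, a phosphodiesterase of cyclic GMP, fell by 0.41 ± 0.061 (adjusted p = 9.52e-06), SLC2A12, a glucose transporter, by 0.41 ± 0.072 (adjusted p = 0.000265), and MAP1B, which binds microtubules, by 0.41 ± 0.069 (adjusted p = 0.000144). RAB3B, a small GTPase of secretory vesicles, fell by 0.40 ± 0.063 (adjusted p = 4.06e-05), and WWC1, a scaffold of the Hippo pathway, by 0.37 ± 0.048 (adjusted p = 2.97e-07). SLC2A12 overlaps its neighbour TBPL1 on the opposite strand, and the strand setting of the counting is not given in the sources used here. P2RY1, a receptor for ADP, fell by 0.55 ± 0.066 (adjusted p = 6.07e-08), from 13.5 to 15.9 CPM with R1881 to 9.32 to 10.6 CPM with the low dose.

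The promoters of the largest falls that have a RefSeq window are shown for comparison with those of KLK3 and KLK2. They lie at chr1:207032707-207033006 (C1orf116, minus strand), chr11:95089596-95089895 (ENDOD1, plus strand) and chr1:205680460-205680759 (SLC45A3, minus strand), written in the direction of the gene.
C1orf116: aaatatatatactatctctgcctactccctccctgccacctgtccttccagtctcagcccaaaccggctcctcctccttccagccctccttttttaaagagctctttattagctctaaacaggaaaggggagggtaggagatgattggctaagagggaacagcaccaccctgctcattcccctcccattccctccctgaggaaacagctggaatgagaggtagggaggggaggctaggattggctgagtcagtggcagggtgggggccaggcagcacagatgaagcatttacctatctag
ENDOD1: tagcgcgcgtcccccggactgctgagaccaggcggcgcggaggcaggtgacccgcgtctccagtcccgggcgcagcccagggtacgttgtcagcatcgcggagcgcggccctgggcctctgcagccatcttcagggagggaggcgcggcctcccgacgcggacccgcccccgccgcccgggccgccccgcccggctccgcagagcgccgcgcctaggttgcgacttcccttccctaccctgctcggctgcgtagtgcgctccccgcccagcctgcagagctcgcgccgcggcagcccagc
SLC45A3: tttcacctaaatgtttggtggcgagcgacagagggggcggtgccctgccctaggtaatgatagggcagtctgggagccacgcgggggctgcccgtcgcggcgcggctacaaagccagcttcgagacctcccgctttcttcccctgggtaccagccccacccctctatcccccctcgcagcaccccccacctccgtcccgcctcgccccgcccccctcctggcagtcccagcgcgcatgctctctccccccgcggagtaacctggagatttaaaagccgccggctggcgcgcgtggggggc
No such motif was found in these windows, so all letters are lower case. Their GC contents were 53%, 76.7% and 69%, against 61% for KLK3.

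Several strong falls lay at or below the median expression (4.04 as mean log2 CPM) and were chosen for mention after their values were seen. CHRNA2, a subunit of the nicotinic acetylcholine receptor, had the largest fall, with 1.60, 0.659, 1.13, 1.076 and 1.15 CPM against 2.80, 3.98 and 5.07. Its groups did not overlap, and the log2 fold change was -1.79 ± 0.18 (adjusted p = 2.55e-10), on at least 14 reads in each low-dose library. ZBTB16, a zinc finger repressor, had 9.27, 4.76, 6.06, 7.77 and 4.88 CPM against 10.8, 13.0 and 16.4, a fall by 1.01 ± 0.15 (adjusted p = 9.52e-06). The cold-sensing channel TRPM8 fell by 0.59 ± 0.098 (adjusted p = 9.99e-05) and MAOA, the monoamine oxidase, by 0.65 ± 0.12 (adjusted p = 0.00112), both without overlap.

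The rises had a median size close to that of the falls but a shorter upper range. RFX3, a transcription factor of ciliary genes, had 18.1, 19.7, 20.2, 20.3 and 21.7 CPM with the low dose and 14.7, 16.2 and 17.5 CPM with R1881. Each low-dose library was above each R1881 library, and the log2 fold change was 0.32 ± 0.059 (adjusted p = 0.000729). BAMBI, a decoy receptor that dampens TGF-beta signalling, had 56.4, 57.9, 60.7, 58.1 and 57.6 CPM against 44.4, 47.1 and 52.8. It rose without overlap by 0.29 ± 0.044 (adjusted p = 2.05e-05). WNT5A, a ligand of non-canonical Wnt signalling, had 167, 176, 166.5, 165 and 172 CPM against 141, 146 and 155, and rose by 0.21 ± 0.040 (adjusted p = 0.00128). PCDH19, a protocadherin, rose by 0.25 ± 0.043 (adjusted p = 0.000265) and FAM46A, a non-canonical poly(A) polymerase, by 0.23 ± 0.046 (adjusted p = 0.00194), both without overlap. In VCAN, which encodes the matrix proteoglycan versican, replicate 1 had 97.8 CPM, inside the R1881 range of 83.8 to 101, and the other low-dose libraries had 116.3 to 126 CPM. VCAN rose by 0.29 ± 0.068 (adjusted p = 0.0224), and by 0.34 ± 0.071 without replicate 1 (adjusted p = 0.00498). The cadherin FAT4 rose by 0.28 ± 0.070 (adjusted p = 0.0323) and S1PR3, a receptor for sphingosine-1-phosphate, by 0.20 ± 0.044 (adjusted p = 0.00684), with 1 low-dose library inside the R1881 range in both. The call was lost in 14 of 25 alternative settings for FAT4, 7 for VCAN and 5 for S1PR3, with the direction kept. Outside the rule for named genes, ANXA1, a regulator of inflammation that binds phospholipids, rose by 0.35 ± 0.060 (adjusted p = 0.000265) and the ganglioside sialyltransferase ST8SIA1 by 0.43 ± 0.079 (adjusted p = 0.000521).

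RefSeq windows of the 2 largest well-expressed rises that have one are shown beside those of the falls. BAMBI lies at chr10:28677271-28677570 and VCAN at chr5:83471494-83471793, both on the plus strand.
BAMBI: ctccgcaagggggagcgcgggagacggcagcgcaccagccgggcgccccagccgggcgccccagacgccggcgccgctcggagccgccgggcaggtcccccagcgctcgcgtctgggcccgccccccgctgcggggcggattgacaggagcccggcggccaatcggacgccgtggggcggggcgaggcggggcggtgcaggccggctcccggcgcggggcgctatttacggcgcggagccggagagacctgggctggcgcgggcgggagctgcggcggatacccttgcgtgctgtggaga
VCAN: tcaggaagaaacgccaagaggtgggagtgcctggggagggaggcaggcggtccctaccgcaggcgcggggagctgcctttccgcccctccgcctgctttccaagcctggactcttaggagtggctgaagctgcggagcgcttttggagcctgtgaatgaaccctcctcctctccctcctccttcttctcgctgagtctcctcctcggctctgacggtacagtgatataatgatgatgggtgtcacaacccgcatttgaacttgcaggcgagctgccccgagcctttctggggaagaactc
Neither held the AGAACA motif. The BAMBI window had a GC content of 80% and the VCAN window one of 60.3%.

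Members of androgen-related gene lists were counted next, beside 0.489% of all tested genes called lower and 0.137% called higher. The lists were written from general knowledge with earlier results of these data known. The counts therefore describe the lists and are not a separate test. Of 13 tested kallikrein and prostatic secretion genes, 5 fell (KLK2, KLK3, KLK4, SLC45A3 and TMPRSS2) and 0 rose, with a median log2 fold change of -0.44 against 0.01 over all tested genes. TMPRSS2, the transmembrane protease whose promoter drives ERG in many prostate tumours, fell little, with 123, 111.9, 120.2, 120.5 and 118 CPM against 127, 132 and 136. The fall of TMPRSS2 was 0.15 ± 0.030 (adjusted p = 0.00363), and the groups did not overlap. Of 37 androgen-induced regulators, 7 fell and 0 rose, with a median of -0.03. They included FKBP5, ZBTB16, EAF2, HOMER2, RHOU and PMEPA1. HOMER2, a scaffold protein, fell by 0.33 ± 0.040 (adjusted p = 5.57e-08), the GTPase RHOU by 0.28 ± 0.035 (adjusted p = 1.79e-07), and PMEPA1, a membrane inhibitor of TGF-beta signalling, by 0.25 ± 0.034 (adjusted p = 1.03e-06). Of 50 androgen-induced metabolism and transport genes, 3 fell (HPGD, ABCC4 and ELOVL7) and 0 rose, with a median of -0.02. The efflux transporter ABCC4 fell by 0.34 ± 0.069 (adjusted p = 0.00287) and ELOVL7, an elongase of long-chain fatty acids, by 0.24 ± 0.051 (adjusted p = 0.00515). Without replicate 1, 5 of the 50 fell, with the pyrophosphate transporter ANKH and the sorbitol dehydrogenase SORD added.

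The list named androgen-repressed held members that R1881 raised in these cells. Of 27 tested, 2 rose (WNT5A and IGFBP5) and 2 fell (UGT2B10 and UGT2B11), with a median of 0.02. IGFBP5, which binds insulin-like growth factors, had 2042, 1887, 1930, 2013 and 1921 CPM against 1655, 1748 and 1894. A single low-dose library lay inside the R1881 range, the rise was 0.16 ± 0.035 (adjusted p = 0.0116), and without replicate 1 the adjusted p was 0.0787. UGT2B10 and UGT2B11 encode members of the glucuronosyltransferase family and fell by 0.27 ± 0.064 (adjusted p = 0.0157) and 0.24 ± 0.049 (adjusted p = 0.00351). They belong to a cluster of near-identical genes, in which reads may be shared. Against the list's name, R1881 alone had raised both over DMSO at 8 h, by 0.43 ± 0.052 for UGT2B10 (adjusted p = 1.15e-08) and 0.35 ± 0.039 for UGT2B11 (adjusted p = 1.27e-09).

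The other lists had 1 or 0 called members, beside 0.626% of all tested genes called. Of the fatty acid list, 1 of 23 genes fell (ELOVL7), and of the hexosamine and sialic acid list 1 of 12. The latter was ST6GALNAC1, which makes the sialyl-Tn antigen, with 2.00, 1.60, 2.68, 1.55 and 1.33 CPM against 2.07, 2.83 and 3.69. Its groups overlapped, and the log2 fold change was -0.62 ± 0.13 (adjusted p = 0.00557). By edgeR's quasi-likelihood test, 0 members were called among 9 AHR (aryl hydrocarbon receptor) target genes, 50 genes of the unfolded protein response, 26 of cholesterol biosynthesis, 12 of polyamine turnover, 31 of PI3K-AKT-mTOR signalling, 49 of the cell cycle, 16 immediate early genes and 13 mitochondrially encoded genes. At an unadjusted p under 0.05 there were 1, 0, 3, 0, 4, 3, 1 and 1 of them in this order, and DESeq2 called 0 in each list. At the share called over all genes, lists of this length would hold few or 0 calls, so these counts do not set them apart. Their median log2 fold changes were 0.01 for AHR target genes, 0.02 for the unfolded protein response, -0.04 for cholesterol biosynthesis, 0.00 for polyamines, -0.01 for PI3K-AKT-mTOR signalling, 0.04 for the cell cycle, 0.04 for immediate early genes and 0.04 for mitochondrially encoded genes. The member with the smallest adjusted p was TIPARP in the AHR list (log2 fold change 0.11 ± 0.049, adjusted p = 0.862), DDIT3 in the unfolded protein response (0.11 ± 0.061, adjusted p = 1), FDPS in cholesterol biosynthesis (-0.11 ± 0.040, adjusted p = 0.432) and INPP4B in PI3K signalling (-0.21 ± 0.062, adjusted p = 0.164). For the cell cycle it was CCND1 (-0.07 ± 0.032, adjusted p = 0.9), for polyamines SMS (0.06 ± 0.033, adjusted p = 1), for immediate early genes KLF6 (0.08 ± 0.035, adjusted p = 0.909) and for mitochondrial genes MT-ND4L (0.09 ± 0.045, adjusted p = 0.988). The pioneer factor FOXA1, at 1063 to 1135 CPM against 1036 to 1085, differed by 0.04 ± 0.022 (adjusted p = 1). Among the other genes chosen by name, IGF1R (-0.09 ± 0.049, adjusted p = 1), NCAPD3 (-0.01 ± 0.033, adjusted p = 1) and ACPP (0.13 ± 0.051, adjusted p = 0.56) were not called.

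**Figure D3:**
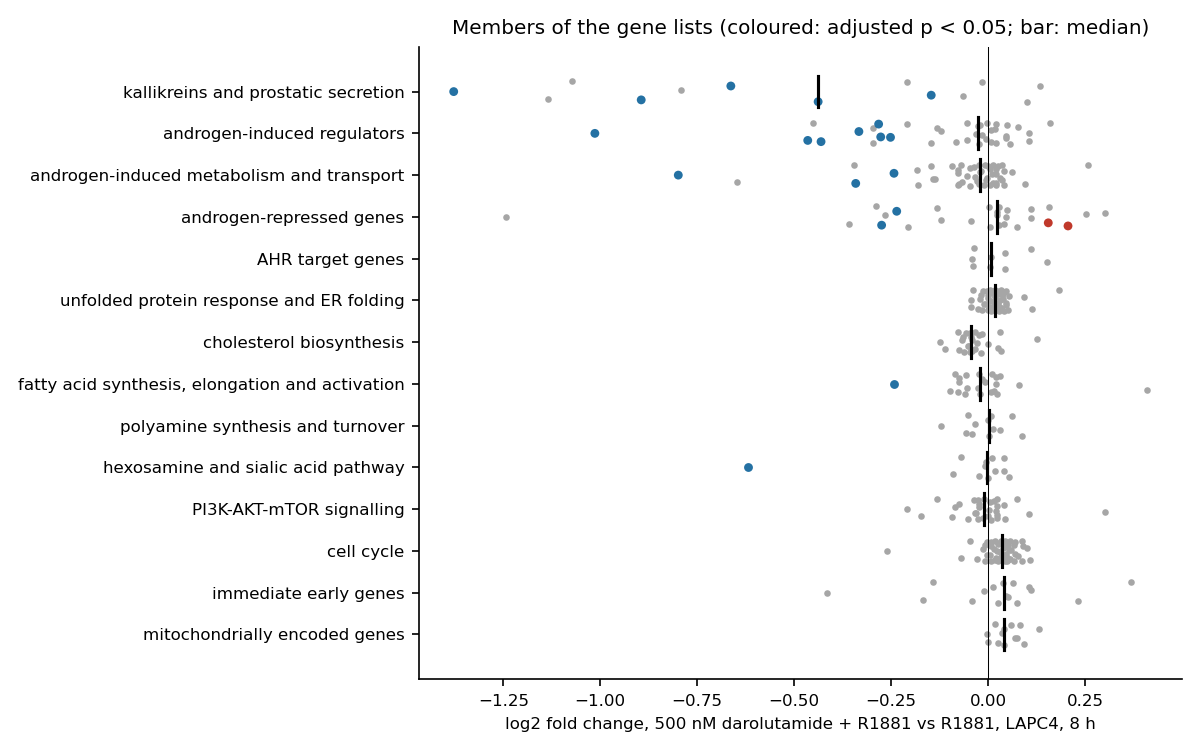
Log2 fold change of 500 nM darolutamide plus R1881 against R1881 for each tested member of 14 gene lists, with called members in colour (blue lower, red higher) and a bar at the median. The coloured points lie in the kallikrein, regulator, metabolism and repressed lists and at 1 gene each in the fatty acid and hexosamine lists.

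The remaining distance to the androgen-free state was read from the low dose against DMSO. These values share the 5 low-dose libraries with the comparison above and are set beside it. In all, 34 genes were called (0.187%), 33 higher (0.181%) and 1 lower (0.00549%) than with DMSO. At an unadjusted p under 0.05 there were 848, close to the share that this threshold passes with no effect. Of the 89 falls, 24 were still called above DMSO and 0 below, and 78 had a positive log2 difference (median 0.117). R1881 against DMSO at 8 h gave the same genes a median of 0.41. Of the 25 rises, 0 were called against DMSO (median -0.0333). Without low-dose replicate 3, 4 or 5 there were 20, 17 or 16 calls. The lower one was LRRC31, at -0.20 ± 0.045 (adjusted p = 0.0396). C1orf116 stood highest above DMSO in significance, at 0.58 ± 0.028 on the log2 scale (adjusted p = 6.19e-23), since the DMSO libraries held 134.5 to 149 CPM. ARHGEF26, a guanine nucleotide exchange factor, had 78.2, 86.0, 81.5, 83.3 and 81.8 CPM against 62.0 to 69.4 with DMSO and 95.8 to 106 with R1881. Its low-dose libraries overlapped neither group, with a log2 difference of 0.32 ± 0.030 to DMSO (adjusted p = 1.27e-10). P2RY1 remained 0.48 ± 0.066 above DMSO (adjusted p = 1.1e-05), ENDOD1 0.30 ± 0.044 (adjusted p = 2.64e-05) and HPGD 0.47 ± 0.070 (adjusted p = 6.09e-05). For KLK3 the difference to DMSO was 0.07 ± 0.089 and for KLK2 0.12 ± 0.13 (adjusted p = 0.976 for both). FKBP5 was 0.19 ± 0.040 above DMSO (adjusted p = 0.0148). Among the rises, BAMBI (-0.05 ± 0.044), WNT5A (-0.09 ± 0.040) and RFX3 (0.02 ± 0.059) were not called against DMSO (adjusted p = 0.976, 0.976 and 0.985). R1881 against DMSO, which shares the 10 R1881 libraries, called 481 genes at 8 h (2.64%), 318 higher (1.75%) and 163 lower (0.895%), and its log2 fold change was 0.96 for KLK3, 1.499 for KLK2, 1.28 for C1orf116, 1.27 for HPGD, 0.62 for FKBP5, -0.33 for BAMBI and -0.30 for WNT5A.

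The higher dose of 2 µM was compared directly with the low dose at the same time. Between 2 µM and 500 nM, 5 genes were called (0.0275%), 4 lower (0.022%) and 1 higher (0.00549%), with 576 at an unadjusted p under 0.05 and 9 called by DESeq2. The 576 are fewer than this threshold passes with no effect. C1orf116 was lower still with 2 µM, at 147 to 152 CPM, by 0.51 ± 0.033 on the log2 scale (adjusted p = 3.03e-17). ARHGEF26 was lower by 0.28 ± 0.035 (adjusted p = 8.63e-07), P2RY1 by 0.48 ± 0.078 (adjusted p = 0.000446) and ELOVL7 by 0.32 ± 0.059 (adjusted p = 0.00702). Against R1881, 2 µM called 281 genes (1.54%), 196 lower (1.08%) and 85 higher (0.467%). For KLK2 and KLK3 the doses differed by -0.13 ± 0.15 and -0.12 ± 0.10 (adjusted p = 1 for both). The only gene higher with 2 µM was CYP1A1 (chromosome 15, 74719542 to 74725536), a cytochrome P450 that is the classical target of the aryl hydrocarbon receptor. CYP1A1 had 78.7, 78.9, 74.2, 72.7 and 76.5 CPM with the low dose, inside the R1881 range of 64.2 to 88.7 and the DMSO range of 61.01 to 91.5, and 106 to 114 CPM with 2 µM. The low dose changed it by 0.01 ± 0.082 against R1881 (adjusted p = 1), and the doses differed by 0.52 ± 0.095 (adjusted p = 0.00545).

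The CYP1A1 promoter is shown because it holds the core of the binding motif of that receptor, GCGTG, in capitals, starting 57 bases before the gene start (RefSeq, chr15:74725479-74725778, minus strand).
CYP1A1: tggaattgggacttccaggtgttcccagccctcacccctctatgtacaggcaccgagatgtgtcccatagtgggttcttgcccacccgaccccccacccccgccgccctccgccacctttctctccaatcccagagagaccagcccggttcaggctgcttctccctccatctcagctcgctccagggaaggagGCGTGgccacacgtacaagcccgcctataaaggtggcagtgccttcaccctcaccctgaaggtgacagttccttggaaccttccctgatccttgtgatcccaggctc
The same 5 letters, on either strand, were found in 51.9% of all windows, in 41.5% of the falls and in 23.1% of the rises, so that a match is common.

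The falls and rises were then read in the 22 h libraries, none of which belongs to either group of the 8 h comparison. All LAPC4 libraries were filtered and fitted together, so the 22 h libraries did enter the estimate of spread behind the 8 h calls. The overlaps below are therefore not a fully separate test. With only the compared groups fitted, 99 genes were called at 8 h, of which 88 were among the 114. R1881 against DMSO at 22 h called 2418 genes (13.3%), 1244 higher (6.83%) and 1174 lower (6.45%). Of the 89 falls, 87 (97.8%) were among the 1244 raised genes, of which they made 6.99%, and 0 were among the lowered genes. Of the 25 rises, 23 (92%) were among the 1174 lowered genes, of which they made 1.96%, and 0 among the raised. Over the 1244 raised genes the median log2 fold change of the low dose at 8 h was -0.04 with 72.9% below 0, and over the 1174 lowered genes it was 0.05 with 16.7% below 0, against 42.9% of all tested genes. Low-dose darolutamide against R1881 at 22 h called 1072 genes (5.89%), 584 lower (3.21%) and 488 higher (2.68%). These included 84 of the 89 falls (94.4%, and 14.4% of the 584) on the lower side and 23 of the 25 rises (92%, and 4.71% of the 488) on the higher side. Without replicate 1, 73 of 77 falls were raised by R1881 at 22 h and 70 were lower with the low dose at 22 h, and 30 of 31 rises were lowered and 30 higher.

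**Figure D4:**
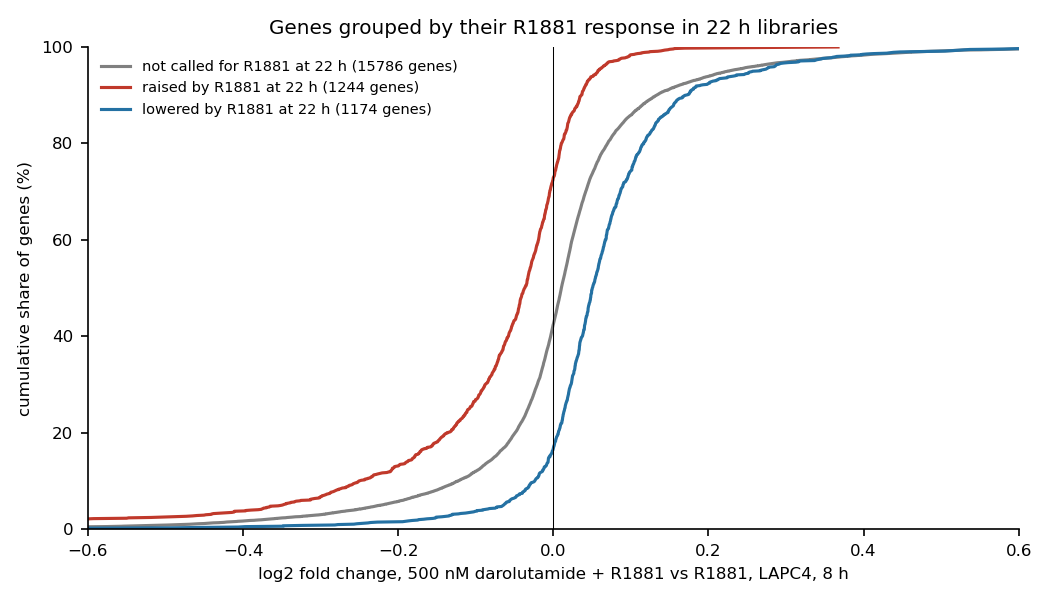
Cumulative share of genes (vertical axis, percent) against the log2 fold change of the low dose at 8 h (horizontal axis), for genes raised by R1881 at 22 h (red, 1244), lowered (blue, 1174) and not called (grey). The red curve crosses 0 at 72.9% and the blue curve at 16.7%, the grey one lying between them. Genes beyond the axis limits are not drawn.

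The low-dose effect was larger at 22 h for part of these genes. The interaction of dose effect and time was called for 133 genes (0.731%), 102 more negative (0.56%) and 31 more positive (0.17%) at 22 h, with 1288 at an unadjusted p under 0.05. PMEPA1 changed from -0.25 ± 0.034 at 8 h to -0.87 ± 0.035 at 22 h, a difference of -0.62 ± 0.048 (adjusted p = 5.87e-14). HOMER2 changed from -0.33 ± 0.040 to -1.01 ± 0.041 (difference -0.68 ± 0.056, adjusted p = 4.45e-13), and FKBP5 from -0.43 ± 0.041 to -1.09 ± 0.042 (difference -0.66 ± 0.056, adjusted p = 1.61e-12). HPGD showed the widest gap of the 5 with the smallest adjusted p, from -0.80 ± 0.069 to -1.83 ± 0.069 (difference -1.03 ± 0.095, adjusted p = 1.35e-11). The non-coding RNA LINC01443 changed from -0.37 ± 0.035 to -0.91 ± 0.035 (difference -0.53 ± 0.048, adjusted p = 1.17e-11). For KLK2 and KLK3 the time points differed by -0.58 ± 0.17 (adjusted p = 0.131) and -0.37 ± 0.12 (adjusted p = 0.218), which did not pass the test. NCAPD3, not called at 8 h, was at -0.26 ± 0.033 at 22 h, and the difference of -0.25 ± 0.047 was called (adjusted p = 0.000792). Among the rises, PCDH19 changed from 0.25 ± 0.043 to 0.62 ± 0.043 (difference 0.38 ± 0.061, adjusted p = 0.000111).

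VCaP cells at the same dose and time gave another pattern. In a joint fit of both cell lines over 16578 genes, the low dose called 5204 genes in VCaP cells (31.4%), 2521 lower (15.2%) and 2683 higher (16.2%). Of 82 LAPC4 falls that were tested in both lines, 25 were lower (30.5%) and 34 higher (41.5%) in VCaP cells, and of 20 rises 11 were higher (55%) and 4 lower (20%). In VCaP cells R1881 raised 5024 genes (30.3%), with 55 of the 82 falls and 3 of the 20 rises among them, and lowered 6493 (39.2%), with 21 of the falls and 16 of the rises among them. In the same joint fit the LAPC4 comparison itself called 69 genes (0.416%), 65 lower (0.392%) and 4 higher (0.0241%). FKBP5, RHOU, MAP1B, WWC1, ELOVL7 and TMPRSS2 were lower in VCaP cells as well, with log2 fold changes of -0.99 ± 0.051, -0.96 ± 0.046, -1.05 ± 0.071, -0.42 ± 0.047, -0.47 ± 0.063 and -0.27 ± 0.031. C1orf116 (0.22 ± 0.034), ENDOD1 (0.42 ± 0.049), P2RY1 (1.48 ± 0.072) and PMEPA1 (0.38 ± 0.026) were higher there. The interaction of cell line and dose effect was called for 3387 genes (20.4%), 1759 with a more positive effect in LAPC4 cells (10.6%) and 1628 with a more negative one (9.82%). KLK3, at -0.02 ± 0.079 in VCaP cells, differed between the lines by -0.88 ± 0.11 (adjusted p = 1.7e-10) and KLK2, at 0.04 ± 0.064, by -1.41 ± 0.12 (adjusted p = 3.53e-19). C1orf116 differed by -0.92 ± 0.047 (adjusted p = 5.72e-33). The following interactions, among those with the smallest adjusted p, belonged to genes that were not called in LAPC4 cells. VCL, the adhesion protein vinculin, was at 0.06 ± 0.030 in the LAPC4 fit and -2.09 ± 0.048 in VCaP cells, a difference of 2.14 ± 0.060 (adjusted p = 4.12e-55). TIPARP differed by 2.54 ± 0.090 (adjusted p = 4.85e-46), the membrane repair protein MYOF by 2.41 ± 0.088 (adjusted p = 6.47e-45) and ERRFI1, an inhibitor of EGF receptor signalling, by 1.98 ± 0.078 (adjusted p = 4.86e-42). The cell lines were cultured apart, so the line and its culture cannot be told apart.

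**Figure D5:**
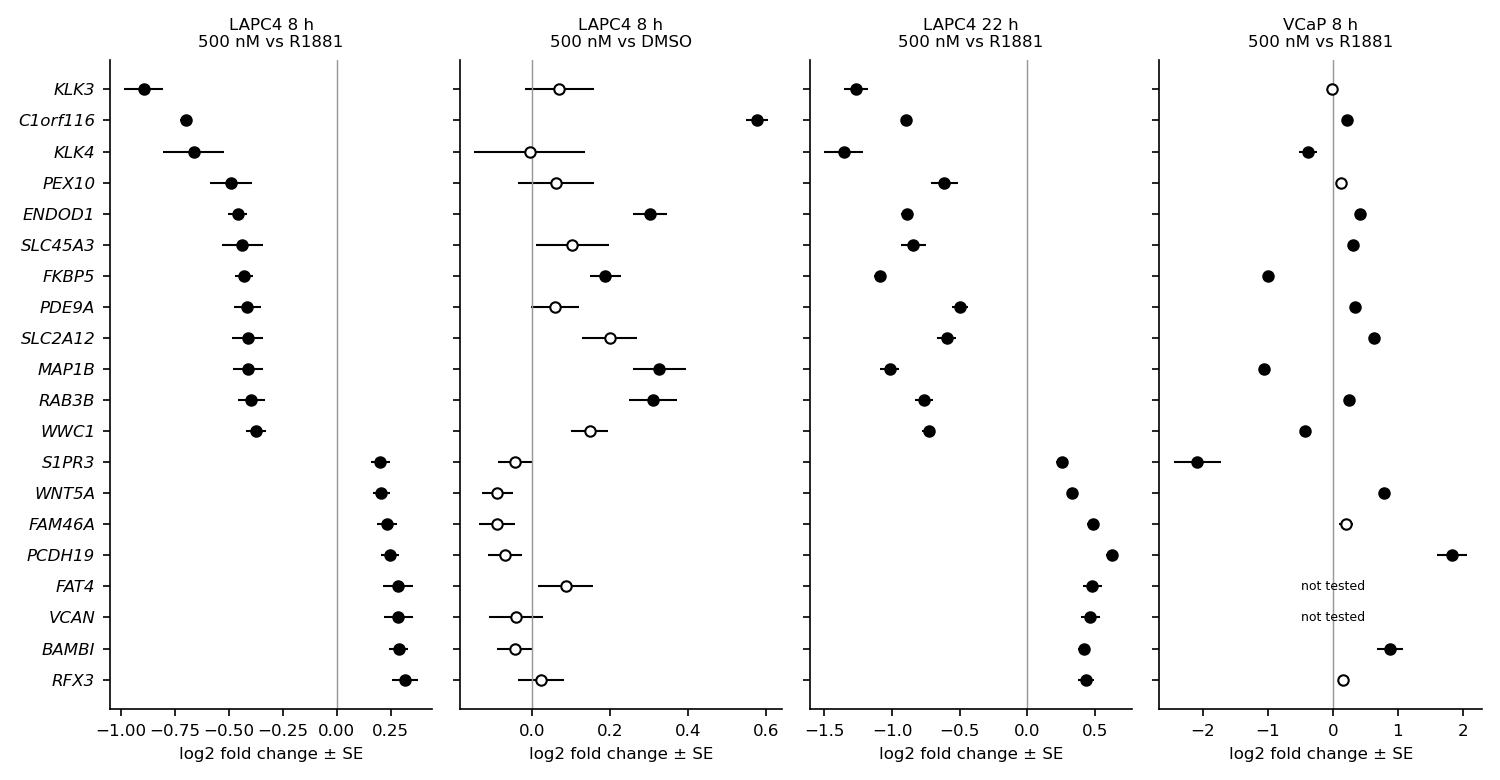
Log2 fold change ± SE of the 12 largest falls and 8 largest rises among well-expressed called genes in 4 comparisons, each with its own horizontal scale. Filled points have an adjusted p under 0.05 and open points do not. KLK3 and KLK4 sit near 0 against DMSO, each gene keeps its direction in LAPC4 cells at 22 h, and signs vary in VCaP cells, where FAT4 and VCAN were not tested.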

How the data were processed

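RNA was measured by stranded, poly(A)-selected single-end sequencing. The authors used STAR for alignment (GRCh38) and featureCounts for gene totals, and the deposited table holds raw counts, with bcl2fastq 2.17 named in the submitters' processing notes. Annotation release, strand setting and treatment of shared reads are not given in the sources used here. The filter kept genes that reached 10 reads in 4 or more LAPC4 libraries. A quasi-likelihood model over the 57 LAPC4 libraries was fitted with edgeR 4.0.16 (R 4.3.3, TMM factors, Benjamini-Hochberg adjustment, threshold 0.05), and a joint model over both cell lines gave the cell line interaction. The SE was taken as the absolute log2 fold change over root F. DESeq2 1.42.0, other filters, factors, control subsets, a GC slope covariate, a replicate block and leaving out libraries were alternatives. Scripts were tested on simulated data. Replicates were numbered by the labels, which do not say that equal numbers share a culture.

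Named genes were the 12 largest falls and 8 largest rises among called genes above the median expression, a set chosen by name (ERG, FOXA1, NCAPD3, IGF1R, PMEPA1, ACPT, ACPP, FKBP5, TMPRSS2, KLK3 and KLK2), up to 3 called members of each list (the 1 with the smallest adjusted p where none was called), and the 5 smallest adjusted p of each other comparison. Other genes were chosen for mention after their values were seen, also where the text does not say so. The members and lists were chosen with earlier results of these data known. Gene positions are from GENCODE 44 and promoters from RefSeq GRCh38.p14. Some genes that meet the rule are not reported here. KLK4, PEX10 and RFX3 are named without a promoter sequence.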

Additional observations from a re-analysis of the deposited data

Results flagged for a closer look

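In groups of 5 or 10 libraries, a library was singled out where its gap to the nearest other one, as a share of the group's range, passed Dixon's limit. This held in 4 of 70 groups tested, and chance gives 3.5. In the low-dose group, replicate 1 was the highest library for PEX10 (gap 0.803) and the lowest for MAP1B (0.778), and replicate 2 was the lowest for LINC01443 (0.830). In the R1881 group, replicate 2 was the highest for ABCC4 (0.552).

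The low-dose effect differed between 22 h and 8 h, by the interaction test, for PMEPA1 (-0.62 on the log2 scale), HOMER2 (-0.68), FKBP5 (-0.66), LINC01443 (-0.53) and HPGD (-1.03). It differed between LAPC4 and VCaP cells for VCL (2.14), TIPARP (2.54), MYOF (2.41) and ERRFI1 (1.98).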

How the results depend on the processing

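All 114 called genes kept their direction under every alternative that tested them (113 with edgeR's own expression filter). Where counts moved, the cause was not tested. For the low dose against R1881, the 114 calls (89 lower, 25 higher) became 72 (58 and 14) with no filter on low counts, 69 (9 higher) with R1881 replicates 1 to 5, 281 (185 and 96) with the GC slope as a covariate, and 16 were higher when only the compared groups were fitted. With a replicate block 9 genes were called, 9 lower and 0 higher, and with block and GC slope together 430 (230 and 200). The block fits here and below held only the groups compared, with replicates 1 to 5 (1 to 10 for R1881 against DMSO). The block and the smaller set of libraries therefore changed together, and their effects cannot be told apart. Same-numbered low-dose and R1881 libraries at 8 h did not deviate together (5 correlations of -0.129 to 0.0245, 0 above 0.1, 0 libraries best with their own number). Same-numbered correlations were above 0.1 for 3 of 5 pairs between the doses (-0.215 to 0.597), 2 of 5 between low dose and DMSO (-0.381 to 0.336), 1 of 10 between R1881 and DMSO (-0.234 to 0.148), 2 of 5 between low dose at 8 and 22 h (-0.0774 to 0.58), 4 of 10 between R1881 at 8 and 22 h (0.00853 to 0.379) and 2 of 5 between low dose and R1881 at 22 h (-0.122 to 0.275). In no comparison did every pair pass 0.1, so the numbers were not taken to pair the samples. Between the doses at 8 h, however, GC slopes followed the number for replicates 1 to 4. They were -0.0304, -0.0765, -0.0613 and -0.0513 with 500 nM and -0.0368, -0.07855, -0.0689 and -0.05375 with 2 µM. Replicate 5 went apart, at -0.0642 and -0.0436. A batch shared by number was not tested, and the main dose comparison was unpaired. With the replicate block it also gave 5 calls. For the low dose against DMSO, the 34 calls (33 higher, 1 lower) became 19 (19 and 0) with no filter, 12 (12 and 0) with control replicates 1 to 5, 90 (79 and 11) with the GC slope and 1 (1 and 0) with the block, and DESeq2 called 2 lower. For R1881 against DMSO at 8 h, the 163 lower calls became 102 with no filter, and the 481 calls became 238 (165 higher, 73 lower) with control replicates 1 to 5, 1073 (511 and 562) with the GC slope and 304 (75 lower) with the block. The 133 time interactions became 67 (52 lower, 15 higher) with no filter, 460 (300 and 160) with the GC slope and 48 (35 and 13) with the block, and 17 were higher with control replicates 1 to 5. The 5 dose calls became 43 (38 lower, 5 higher) with the GC slope and 9 (8 lower) with DESeq2, and 2 were higher with the block. For the cell line interaction 1059 were lower with no filter.

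Leaving out each low-dose library in turn, which for DMSO, time and dose was chosen after seeing the data, gave 81 to 108 calls against R1881 (66 to 83 lower, 14 to 31 higher), the fewest without replicate 5 and the fewest rises (14) without replicate 2, with 15 rises without replicate 5. Leaving out R1881 libraries gave 95 to 114 (74 to 92 lower, 18 to 25 higher). Against DMSO there were 16 to 28 (16 to 28 higher, 0 to 3 lower), with 20 without replicate 3, 17 without replicate 4 and 16 without replicate 5. The time interaction gave 89 to 131 (63 to 102 lower without replicates 5 and 1, 20 to 29 higher without replicates 4 and 1), and the dose 5 to 8 (4 to 6 lower, 1 to 2 higher), with 8 without replicate 2. Among results for single named genes, 1347 kept their status, called or not called, while 67 lost a call, 11 gained one and 0 reversed. With the replicate block, 27 of 35 named genes called in the main fit lost their call. With 5 low-dose libraries, the smallest change called was 0.106 on the log2 scale.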

Other observations

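Some called genes were neighbours on a chromosome. ZNF649, ZNF613 and ZNF350, zinc finger genes in a row on chromosome 19, had log2 fold changes of -0.21, -0.25 and -0.25. On chromosome 5, IQGAP2, a scaffold of the cytoskeleton, and F2R, the thrombin receptor, lay 7994 bases apart and fell by 0.25 and 0.21. On chromosome 2, the interferon-induced RSAD2 rose by 0.51 while the next tested gene, the ubiquitin ligase RNF144A, fell by 0.13 on the log2 scale. Between R1881 replicates 6 to 10 and 1 to 5, edgeR's quasi-likelihood test called 0 genes, with 1381 at an unadjusted p under 0.05. DESeq2 was not run on that split.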
